A study of Mus musculus with 80 samples.

Results

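The set comprises 9 mouse genes, Cpa1, Cd93, Bbox1, Xcl1, Hcar1, Fam170b, Cryge, Tgfbi and Sod3, out of 21627 protein-coding genes measured. They were chosen by their measured values: each had at least 50 percentage points more of its span inside H3K27me3 peaks in the list from Kdm6b-deleted uterine fibroblasts than in the matching control list, in 1 or more of 6 such pairs. The values that chose them, cKO and control coverage in the 6 pairs, are therefore given as description, with no test. The working name of the set, short genes gained repeatedly, holds for most but not all of it. Sod3 reached 50 points in 1 pair only. Bbox1 (50.8 kb) and Tgfbi (29.8 kb) are longer than the median gene (17.3 kb), while the other 7 members span 2.83 to 6.89 kb.

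The study profiled the histone mark by CUT&RUN, in which an antibody brings a nuclease to marked chromatin, in fibroblasts that were bead-purified from digested mouse uterus. In conditional knockouts (cKO), Kdm6b f/f females carried Pgr-Cre, which works in progesterone-receptor-positive cells, or Pdgfra-Cre, which works in fibroblasts. Their controls were Kdm6b f/f females, labelled without a Cre. Matings of both were to B6 males. The pairs, each a cKO list and its control list, are Pgr-Cre at GD5.5, GD8.5 and GD14.5 from tissue between implantation sites (IIS), Pgr-Cre at GD14.5 and GD18.5 from implantation sites (IS), and Pdgfra-Cre at GD14.5 IS. A separate set of B6CBAF1/J females, labelled with no Kdm6b allele or Cre, gave fibroblasts at GD5.5 IIS after natural mating, at GD5.5 from the uterus after mating with a vasectomized male, from the uterus of non-pregnant females treated with progesterone for 3 days, and from the uterus at GD0.5. Every list pools 3 samples, so each group has 1 list and no replicate values, and the read depth is unknown. The spread between lists, or between pairs, is the only spread that can be given here. It mixes differences of day, site and Cre with error, which cannot be told apart.

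H3K27me3 is the mark that Polycomb repressive complex 2 places on histone H3, and genes that lie in wide domains of it are usually silent. Kdm6b encodes a demethylase that removes the mark. The genes of the set have known roles mostly outside the uterine stroma, in digestion, immunity, the lens or the testis, although Tgfbi and Sod3 encode secreted proteins that connective tissue cells make. The lists measure the mark and not expression.

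Promoter sequences, 250 bases before to 50 after the annotated start, were taken from RefSeq (build GRCm38.p6) for the 7 members with an entry, and 3 of them are shown because they show how the start sites of the set differ. Cpa1 and Tgfbi windows lay wholly inside peaks in more cKO than control lists, with few CpG sites in the first and many in the second. The Fam170b window lay wholly inside a peak in no list. These windows are part of the stretches whose coverage chose the members, so the choice bears on such counts. Capitals mark CpG sites, and each sequence runs 5′ to 3′ on the strand of the gene. The Cpa1 window is chr6:30638968-30639267 on the plus strand, the Tgfbi window is chr13:56609336-56609635 on the plus strand, and the Fam170b window is chr14:32833712-32834011 on the plus strand.
Cpa1: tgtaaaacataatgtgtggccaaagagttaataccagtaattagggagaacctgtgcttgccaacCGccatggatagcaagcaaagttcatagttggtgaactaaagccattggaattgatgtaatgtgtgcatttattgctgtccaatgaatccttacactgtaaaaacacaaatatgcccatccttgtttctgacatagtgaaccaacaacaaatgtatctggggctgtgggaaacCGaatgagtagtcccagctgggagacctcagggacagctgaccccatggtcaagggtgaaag
Tgfbi: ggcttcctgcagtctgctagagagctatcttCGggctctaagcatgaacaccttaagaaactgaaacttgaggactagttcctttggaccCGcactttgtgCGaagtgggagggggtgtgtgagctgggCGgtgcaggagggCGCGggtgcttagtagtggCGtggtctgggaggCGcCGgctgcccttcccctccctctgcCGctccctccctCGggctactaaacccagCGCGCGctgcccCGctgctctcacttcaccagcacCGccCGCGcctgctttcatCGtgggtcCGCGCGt
Fam170b: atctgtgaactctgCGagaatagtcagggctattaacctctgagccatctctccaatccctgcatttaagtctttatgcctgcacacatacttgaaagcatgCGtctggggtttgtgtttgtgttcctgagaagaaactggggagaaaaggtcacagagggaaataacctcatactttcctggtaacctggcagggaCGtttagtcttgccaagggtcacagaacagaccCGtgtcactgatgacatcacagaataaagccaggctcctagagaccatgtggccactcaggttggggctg

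CpG content varied widely among the 7 windows, and 4 of them lie below the median of all windows. The Cpa1 window holds 2 CpG sites, the Bbox1 window (chr2:110305676-110305975, minus strand) 2, the Xcl1 window (chr1:164935473-164935772, minus strand) 3 and the Fam170b window 4. The median over 32851 RefSeq promoter windows is 7. Hcar1 (chr5:123879954-123880253, minus strand) has 8, Cryge (chr1:65051114-65051413, minus strand) 11 and Tgfbi 22, a count above that of 76.9% of all windows. The annotated start is at the 5′ end of the gene span given with each member below, except at Bbox1, where it lies 9.09 kb inside the span, and at Cryge, where it lies 0.653 kb inside. The letters TATAAA, searched on the strand of the gene alone, are in none of the 7 windows and in 8.32% of all windows. The Cpa1 promoter lay wholly inside a peak in 5 of 6 cKO lists and 1 of 6 control lists, and the Tgfbi promoter in 6 cKO lists and 3 control lists. For Xcl1 and for Bbox1 the counts were 6 cKO lists and 4 control lists, so most control lists already held a peak over these windows, the one of Bbox1 being inside the gene span. The Hcar1 window was wholly inside in 2 cKO lists and 1 control list, and the Cryge window in none. The choice of members bears on these list counts. The share over all promoter windows is not given here, and nothing is read from them.

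The unit below is coverage, the share in percent of a gene, extended by 2 kb at each end (mm10), that merged peaks occupy, and differences are cKO minus control in percentage points. The 12 lists of the Kdm6b set cover 609 to 740 Mb of the genome with peaks whose median fold over background is only 1.12 to 1.15. Each cKO list covered more of the genome than its own control list, except at GD14.5 IIS. There the cKO list spanned 685 Mb and its control 731 Mb. The gap was widest for Pdgfra-Cre, whose cKO list spanned 732 Mb against 609 Mb for its control. Across all 21627 genes the median difference was 0 in each pair. The mean difference ranged from -2.25 points at GD14.5 IIS to 1.82 points in the Pdgfra-Cre pair. Kdm6b itself, whose coverage does not report on the deletion, was at 0.932 to 7.1% in cKO and 0 to 6.75% in control lists. Fibroblast markers were almost free of the mark, with 7 of 8 at 0 in all 12 lists, while the 6 epithelial markers averaged 92.8% in cKO and 89.2% in control lists and the 7 immune markers 70.3% in cKO and 69.0% in control lists. Endothelial markers (Pecam1, Cdh5, Kdr, Tek and Emcn) had a summed coverage of 53.5 to 103 points in cKO lists against 32.5 to 59.7 in control lists. The part of other cell types in the results was not tested.

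Gains of 50 points were rare. Between 0.0879% and 0.227% of all genes reached them in a pair, 0.647% in at least 1 of the 6 pairs and 0.171% in at least 2. Of the 37 genes with at least 2 such pairs, 8 belong to the set. The members reached 50 points in 2 of 9 cases in the Pgr-Cre GD5.5 pair (all genes 0.0879%), 4 at GD8.5 (0.171%), 5 at GD14.5 IIS (0.106%), 6 at GD14.5 IS (0.222%), 3 at GD18.5 IS (0.0925%) and 5 in the Pdgfra-Cre pair (0.227%). Since the members were picked on these differences, nothing is read from these counts against the shares of all genes. In all, 25 of 54 member-pairs passed 50 points and 52 of 54 were higher in cKO. The values nearest the threshold were Xcl1 in the Pdgfra-Cre pair at 50.5 and Sod3 at GD18.5 at 52.2 inside it, and Tgfbi at GD8.5 at 46.6 and Cryge at GD14.5 IIS at 46.5 outside it. Averaged over the 6 pairs, the members' median difference was 44.6 points, against 0 for all genes.

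**Figure D1:**
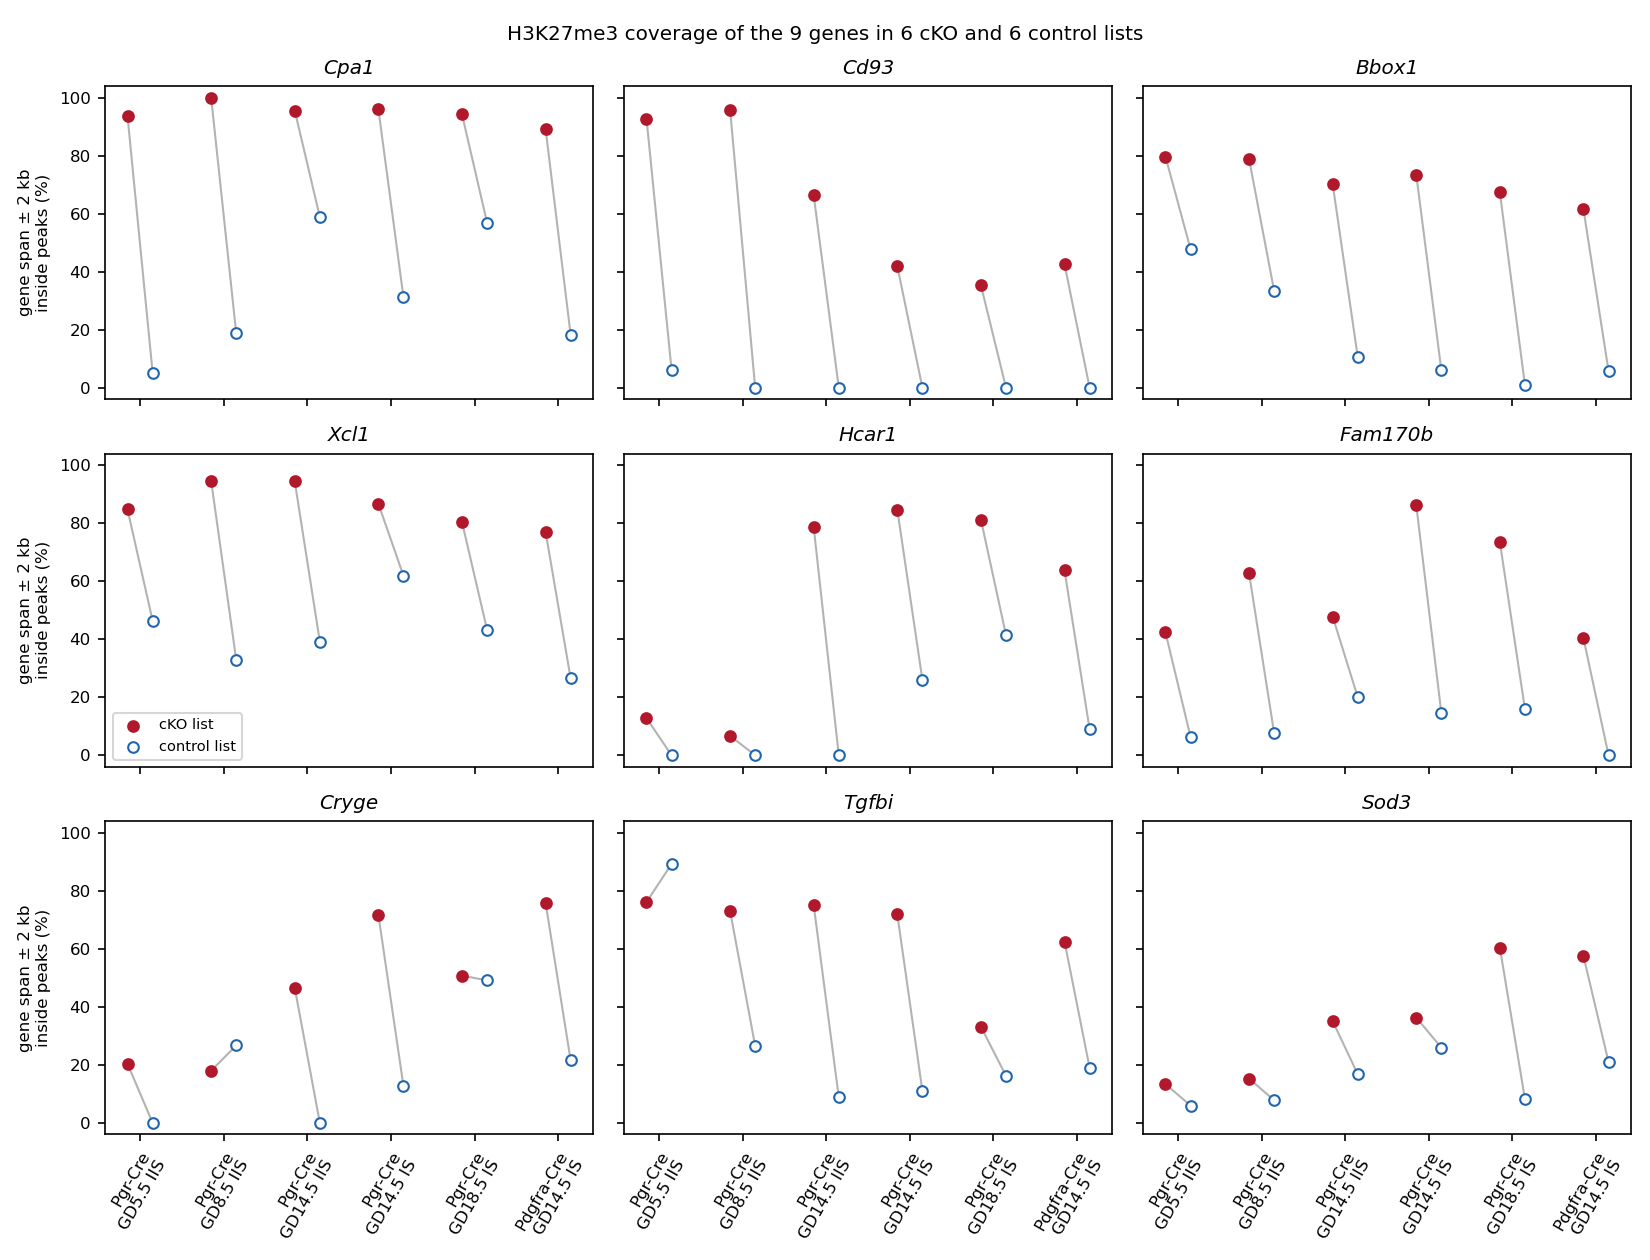
Coverage (vertical axis, percent of the gene, extended by 2 kb at each end, inside peaks) of each member in the 6 pairs (horizontal axis), with the cKO list as a filled point and the control list as an open point. In 52 of the 54 pairs of points the cKO list is the higher one, the exceptions being Tgfbi at GD5.5 and Cryge at GD8.5.

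Cpa1, Bbox1 and Sod3 encode enzymes. Cpa1 (chromosome 6, 30639218 to 30645361), carboxypeptidase A1 of pancreatic juice, was almost wholly inside peaks in all cKO lists. Its coverage was 93.6, 100, 95.5 and 96.1% in the Pgr-Cre cKO lists of GD5.5, GD8.5, GD14.5 IIS and GD14.5 IS, 94.3% at GD18.5 and 89.2% in the Pdgfra-Cre cKO list. In the matching control lists it was 5.18, 18.7, 58.9, 31.2, 56.9 and 18.2%. The cKO lists were all high and the control lists scattered, so that the difference, 36.7 to 88.4 points, was smallest where the control list was highest. The mean was 94.8 ± 3.52% in cKO and 31.5 ± 22.0% in control (SD, 6 lists each), and the mean difference 63.3 ± 21.9 points (SD, 6 pairs).

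Bbox1 (chromosome 2, 110264056 to 110314813) encodes the hydroxylase of the last step of carnitine synthesis and is the longest member. Its coverage was 79.7, 78.9, 70.3, 73.5 and 67.3% in the Pgr-Cre cKO lists in the same order and 61.5% in the Pdgfra-Cre cKO list. Controls held 47.8, 33.4, 10.6, 6.02, 0.889 and 5.72%. Controls of GD5.5 and GD8.5 stood above those of later days, and no control list reached any cKO list. The mean difference was 54.4 ± 13.6 points, the smallest at GD5.5 (31.9) and the largest at GD14.5 IS (67.4).

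Sod3 (chromosome 5, 52363804 to 52369738), the extracellular superoxide dismutase, is the weakest member. It had 13.4, 15.3, 35.1, 36.3 and 60.4% in the Pgr-Cre cKO lists and 57.5% in the Pdgfra-Cre cKO list, against 5.95, 7.76, 16.8, 25.9, 8.19 and 20.96% in the controls. Only GD18.5 IS (52.2 points) and Pdgfra-Cre GD14.5 IS (36.5) differed by more than 20 points. Its mean difference, 22.1 ± 18.4 points, ranks 220th of all genes, whereas Cpa1, Cd93 and Bbox1 rank 2nd, 3rd and 4th.

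Cd93 and Hcar1 encode cell-surface receptors. Cd93 (chromosome 2, 148436651 to 148443535), a C-type lectin of endothelial and myeloid cells, had no peak in 5 of 6 control lists and 6.14% coverage in the sixth, GD5.5. In Pgr-Cre cKO lists it had 92.8% at GD5.5, 95.9% at GD8.5, 66.3% at GD14.5 IIS, 41.9% at GD14.5 IS and 35.3% at GD18.5 IS, and 42.6% in the Pdgfra-Cre cKO list. The cKO lists of the 2 early days were the high ones and those of implantation sites the low ones, all above every control. The mean difference was 61.4 ± 25.6 points. The endothelial markers named above were also higher in cKO lists, by a median of 6.65 points per gene, and none reached 50 in any pair. Whether endothelial cells differ in number between lists and whether the mark differs per cell cannot be told apart, and that part in Cd93 was not tested.

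Hcar1 (chromosome 5, 123876739 to 123880003) is the lactate receptor, best known from fat cells. It was low in both arms on the early days, with 12.8 and 6.68% in cKO lists against 0 and 0% in control lists at GD5.5 and GD8.5. From GD14.5 it was high in cKO, with 78.6% at GD14.5 IIS, 84.7% at GD14.5 IS, 81.2% at GD18.5 IS and 63.7% with Pdgfra-Cre, against 0, 25.97, 41.4 and 8.97% in the controls. The difference over the 6 pairs was 41.9 ± 27.9 points, and the SD reflects this split by day. The lists of the arms overlap, since the early cKO values lie below later control values.

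Xcl1 and Tgfbi encode secreted proteins with no enzyme activity. Xcl1 (chromosome 1, 164931644 to 164935522), the chemokine lymphotactin of T and natural killer cells, had 84.7, 94.6, 94.4, 86.7 and 80.5% in the Pgr-Cre cKO lists and 77.0% in the Pdgfra-Cre cKO list. Control lists held 46.4, 32.9, 39.2, 61.9, 43.3 and 26.5%. Xcl1 had the highest mean control coverage of the set, 41.7 ± 12.2%, and its arms did not overlap. The mean difference was 44.6 ± 13.6 points.

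Tgfbi (chromosome 13, 56609586 to 56639359) encodes a matrix protein induced by TGF-beta. Coverage was 76.1, 73.0, 75.0 and 71.9% in the first 4 Pgr-Cre cKO lists, 33.1% at GD18.5 and 62.5% with Pdgfra-Cre. The GD5.5 control stood at 89.2%, a difference of -13.2 points, and the other controls at 26.5, 8.82, 11.0, 16.2 and 18.99%. A high control list at GD5.5 and a low cKO list at GD18.5 stand apart from the others. The mean difference was 36.8 ± 29.9 points.

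Fam170b and Cryge are best known from testis and lens. Fam170b (chromosome 14, 32833962 to 32836789), the shortest member, encodes a protein of the sperm acrosome and had 42.4, 62.8, 47.8, 86.2 and 73.5% in the Pgr-Cre cKO lists and 40.3% in the Pdgfra-Cre cKO list. Controls held 6.37, 7.67, 20.05, 14.6, 15.9 and 0%. No control list reached a cKO list, and the mean difference was 48.1 ± 16.2 points. With all lists held to equal covered length it was 31.3 points.

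Cryge (chromosome 1, 65048555 to 65051816) encodes a gamma-crystallin of the lens. It had 20.3, 17.9, 46.5, 71.8 and 50.7% in the Pgr-Cre cKO lists and 75.9% in the Pdgfra-Cre cKO list, against 0, 26.7, 0, 12.7, 49.1 and 21.5% in controls. At GD8.5 the difference was -8.73 points, and at GD18.5 the lists differed by 1.62 points. The mean difference was 28.9 ± 28.6 points, an SD as large as the mean. For 5 members, Cpa1, Cd93, Bbox1, Xcl1 and Fam170b, the lowest cKO list lay above the highest control list, a property of 2.15% of all genes. In 7 of the 9 the cKO list was higher in all 6 pairs, as in 6.46% of all genes, a share the choice of members also bears on.

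The peaks behind these values are weak in both arms. All 54 combinations of a member with a cKO list had a peak, as did 43 of 54 with a control list. Over the 119 combinations of a member and a list with a peak, B6CBAF1/J lists included, none had a −log10 q at or above 2, and the highest value was 0.640, at Bbox1 in a control list. The authors' fold over background was at most 1.56 at any member. Within the 43 member-pairs with peaks in both lists, the highest fold at the gene was greater in cKO in 35, with medians of 1.31 in cKO and 1.19 in control. These peaks make up the coverage that chose the members, so their folds are no separate evidence. The share over all genes is not given here, and nothing is read from the count. Sod3 had highest folds of 1.32 to 1.45 in cKO lists, with the highest median of the 9 members (1.41), against 1.09 to 1.27 in control lists. Its arms are thus apart in highest fold, although they overlap in coverage. They also overlap in the mean fold weighted by overlap with the window, at 1.18 to 1.32 in cKO against 1.07 to 1.19 in control lists. The highest folds of Cpa1 were apart too, with 1.25 to 1.36 in cKO against 1.07 to 1.23 in control lists. Fam170b had 1.17 to 1.31 in cKO and 1.00 to 1.1 in the 5 control lists with a peak. In the other 6 members the highest folds of the arms overlapped. Bbox1 had 1.33 to 1.51 in cKO against 1.09 to 1.56 in control lists, so its highest fold was in a control list. Tgfbi had 1.21 to 1.47 in cKO against 1.08 to 1.39 in control lists, and Xcl1 had 1.24 to 1.43 in cKO against 1.20 to 1.32 in control lists. The 1 control list with a Cd93 peak stood at 1.27, within the 1.18 to 1.38 of the cKO lists. Hcar1 and Cryge overlapped too, with 1.01 to 1.33 in cKO against 1.16 to 1.31 in control lists for Hcar1, and 1.11 to 1.26 in cKO against 1.06 to 1.24 in control lists for Cryge. Counting only peaks with a fold of at least 1.3 lowered the mean coverage difference of 8 members by more than 1.5 times, to 2.03 points at Fam170b, 9.05 at Hcar1 and 0 at Cryge, and to 14.7 to 28.6 points at Cpa1, Cd93, Bbox1, Xcl1 and Tgfbi. Sod3 kept 21.1 points.

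**Figure D2:**
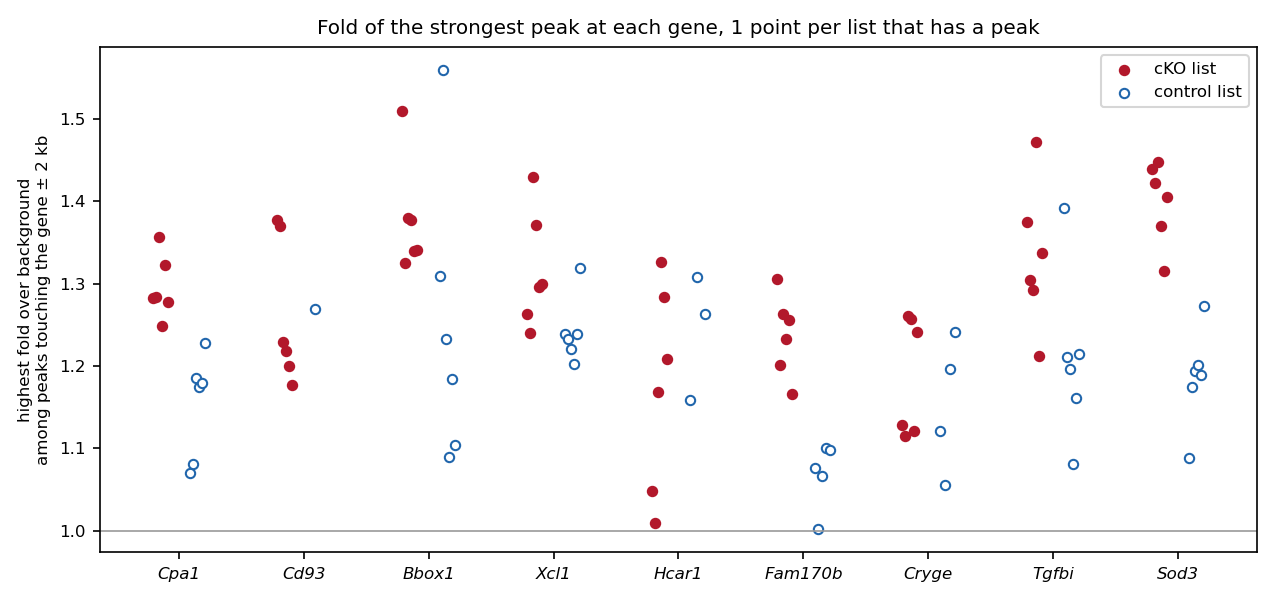
Highest fold over background (vertical axis, the authors' value) among peaks that touch each member (horizontal axis), with 1 point per list that has a peak, cKO filled and to the left, control open. Points of Cpa1, Fam170b and Sod3 separate by arm, those of the other 6 members overlap, and no point passes 1.56.

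Gained stretches that touch the 7 short genes reached at most 3.86 kb before and 8.09 kb after them. The part inside cKO peaks and outside control peaks had a median length of 4.28 kb per member-pair within the window. At Cpa1 it was 6.95 kb of a 10.1 kb window (median of 6 pairs) and reached 2.14 kb before and 2.23 kb after the gene. At Cd93 it was 5.92 kb of 10.9 kb, at most 10.4 kb, in stretches of up to 9.61 kb. At Bbox1 31.7 kb of 54.8 kb was gained, in pieces, the longest of which reached 12.8 kb. At Tgfbi it was 15.6 kb of 33.8 kb.

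The flanks differ between members. In the 5 kb before the gene, in order of coordinates, the mean difference over the 6 pairs ranged from 10.2 points at Fam170b to 73.6 at Cd93, and in the 5 kb after it from 0 at Sod3 to 70.8 at Bbox1. The nearest 2 kb on each side belong to the window that chose the members, so the choice bears on these values. Over all genes the means in the nearest 5 kb were 0.125 points before and 0.190 after. At Sod3 the low-coordinate side was already marked, at 91.7% in cKO and 78.4% in control lists over these 5 kb, and the side after the gene was at 0% in all 12 lists. The cKO peaks at Sod3 thus adjoin a domain that lists of both arms hold on 1 side. Fam170b is the mirror image, with 89.9% in cKO against 42.5% in control lists after the gene, and 10.2% in cKO against 0% in control lists before it. Farther out the median over members was 18.3 points before and 16.97 after at 5 to 20 kb, and 17.6 before and 10.7 after at 20 to 50 kb. Over all genes the medians at these distances were 0 and the means 0.733 to 0.909 points. Some cKO peaks that touch the window reach beyond 5 kb, up to 14.9 kb before Sod3, so the choice bears on these distances too. Several members did not fall off with distance on 1 side. Tgfbi had 53.7 points in the 5 to 20 kb before it, where cKO lists had 62.0% and control lists 8.27%. In the same stretch Cpa1 had 45.4 points, against 41.9 in the nearest 5 kb. Bbox1 did fall off, from 70.8 points in the 5 kb after it to 42.9 at 5 to 20 kb. At 20 to 50 kb, Cd93 had 38.6 points after it, and Fam170b had 35.9 and Xcl1 34.02 points before them. Sod3 had 20.5 points at 5 to 20 kb before it, against 13.2 in the nearest 5 kb. At Cryge the 20 to 50 kb before the gene had 64.2% in cKO and 67.4% in control lists.

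**Figure D3:**
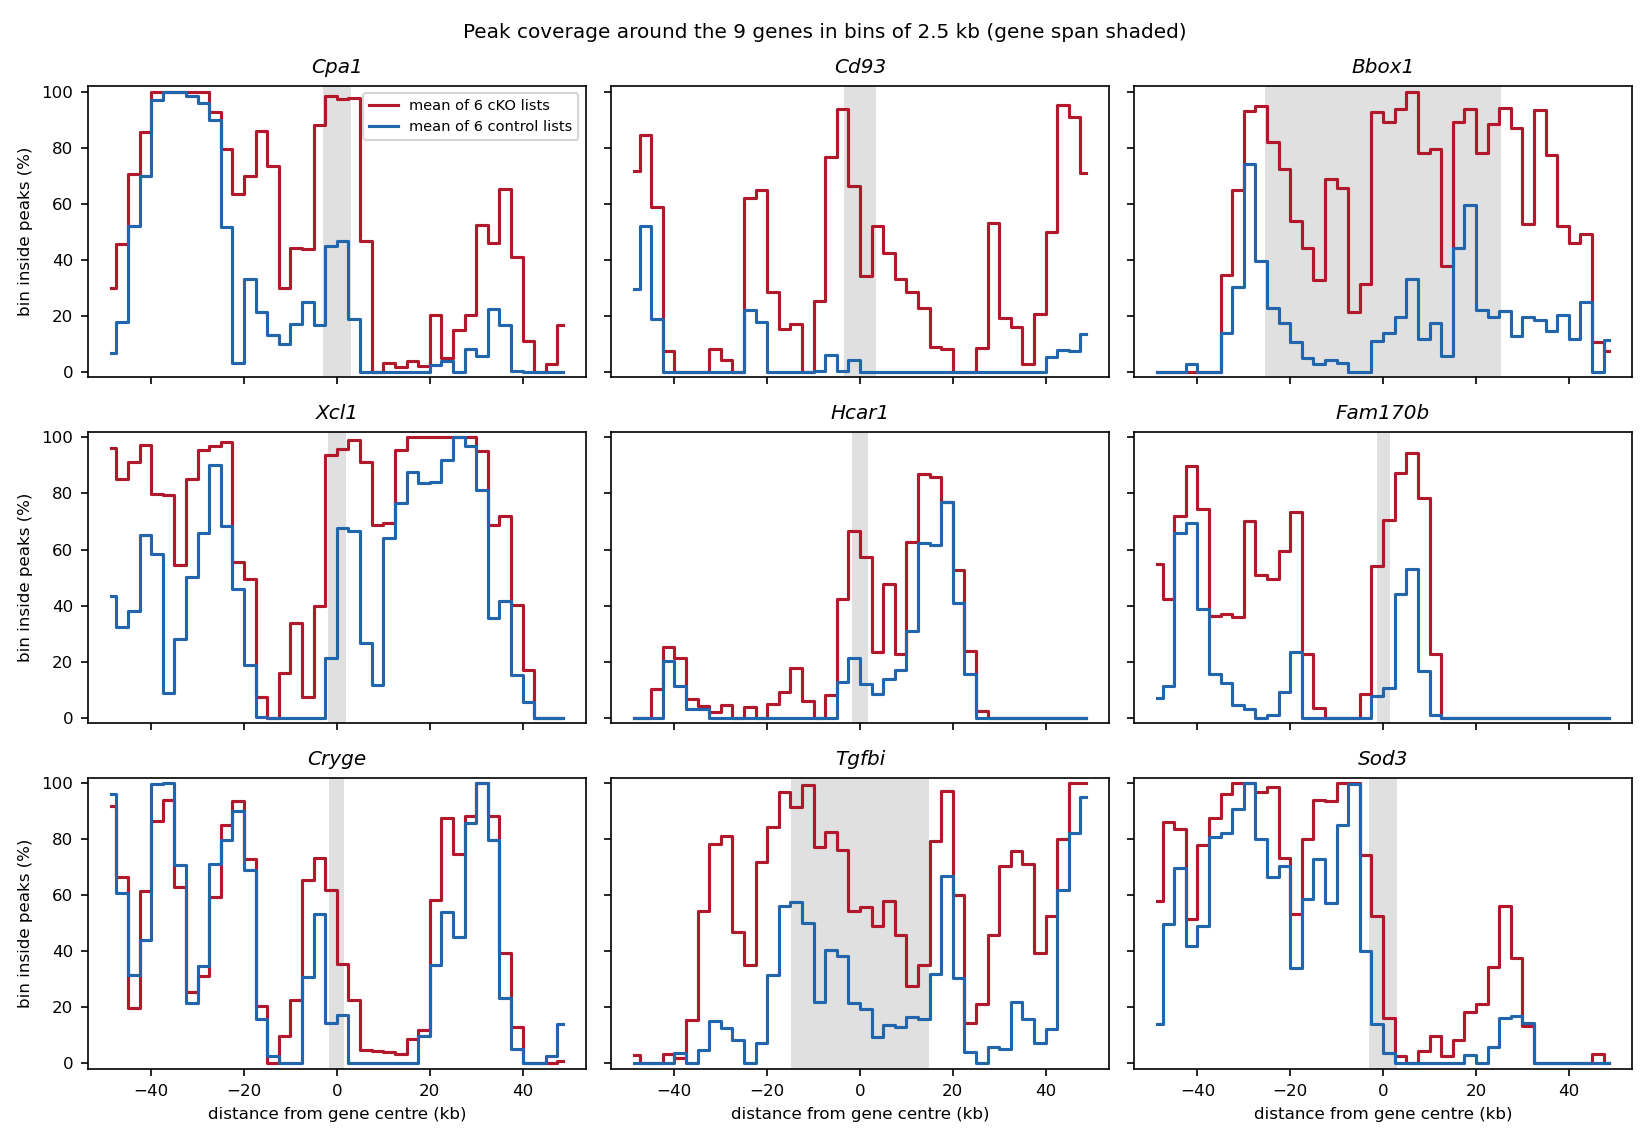
Percent of each 2.5 kb bin inside peaks (vertical axis) by distance from the gene centre in kb (horizontal axis), as the mean of 6 cKO lists and the mean of 6 control lists, with the gene span shaded. The red cKO line stands above the blue control line over the gene span of all members. Both lines are high next to the low-coordinate side of Sod3 and, only farther out, on both sides of Cryge. Far beyond the high-coordinate side of Fam170b both are at 0.

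Most neighbouring genes did not reach gains of this size, but a larger share did than of all genes. Of the 18 neighbours, 2 reached 50 points in at least 1 pair (all genes 0.647%) and 5 reached 25. The neighbours were taken for their place beside chosen members, so these counts are description. The share of all genes past 25 points is not given here. Tmem273, 16.0 kb before Fam170b, had 55.6% in cKO and 18.6% in control lists (37.1 ± 12.9 points, higher in 6 of 6 pairs). Fibin, 46.1 kb after Bbox1, had 83.4% in cKO and 54.7% in control lists (28.7 ± 22.8 points, higher in 5 of 6). Around Cpa1 both neighbours were higher in cKO in 6 of 6 pairs, Cpa5, 7.47 kb before it, with 76.3% in cKO against 46.5% in control lists, and Cep41, 8.10 kb after it, with 39.0% in cKO against 14.8% in control lists. Dpt, Denr, Vstm4 and Dhx15, on 1 side of Xcl1, Hcar1, Fam170b and Sod3, were at 0 in all 12 lists. Dpt encodes the matrix protein dermatopontin of fibroblasts. The median of the neighbours' mean differences was 3.63 points.

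Relatives of the members by sequence family, pathway or imprinted region gave a median mean difference of 0.338 points over 38 genes, and 21 had a mean above 0. In at least 1 pair, 1 gene was higher in cKO by 50 points (all genes 0.647%) and 1 lower. At 25 points in at least 1 pair, 8 were higher and 4 lower. The share of all genes at 25 points is not given here, and nothing is read from these counts. In the carboxypeptidase cluster beside the imprinted Mest gene, Cpa4 had 55.3% in cKO and 44.8% in control lists. Mest differed by 8.57 points. The carboxypeptidase genes outside the cluster went the other way, with Cpb1 at 38.3% in cKO against 49.9% in control lists and Cpa3, of mast cells, at 34.5% in cKO against 50.8% in control lists. Among the gamma-crystallins, Crygc had 70.2% in cKO and 44.1% in control lists, and was 64.7 points higher in cKO in the Pgr-Cre GD8.5 IIS pair. Crygf had 15.8% in cKO and 31.3% in control lists, and differed by -52.2 points in the Pgr-Cre GD14.5 IIS pair. Crygb had 95.4% in cKO and 94.1% in control lists.

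The other families were mostly unmarked or already marked. Thbd, the thrombomodulin gene next to Cd93 and a lectin of the same group, had 3.12% in cKO and 0% in control lists, and Cd248 was at 0 in all lists. Of the carnitine genes other than Bbox1, Tmlhe, Aldh9a1, Slc22a5 and Cpt1a were at 0 in all lists and Shmt1 had 3.55% in cKO and 3.68% in control lists. The other dismutase genes, Sod1 and Sod2, had at most 0.494% mean coverage in either arm. Xcr1, the receptor for the Xcl1 protein, had 80.7% in cKO and 82.7% in control lists. Ffar1 and Ffar3, receptors related to Hcar1, had 92.9% and 100% in cKO against 97.2% and 100% in control lists, and Hcar2 had 10.1% in cKO against 0% in control lists. Postn, a matrix gene of the same family as Tgfbi, had 2.41% in cKO and 0% in control lists. Fam170a had 21.1% in cKO and 24.9% in control lists.

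Lists of equal genotype were also compared, without the deletion as the contrast. The 2 control lists of GD14.5 IS, the one paired with Pgr-Cre minus the one paired with Pdgfra-Cre, have the same genotype, day and site in the labels. No member differed by 50 points either way between them, against 0.342% of all genes. The 12 lists of the Kdm6b set gave the values that chose the members, and the choice favours low control coverage. It thus bears on the members' differences here and between days, and nothing is read from these counts. Of all genes, 0.301% were at least 50 points higher and 0.0416% at least 50 points lower, a larger share of gains than in any cKO pair. These 2 lists also differ in extent, at 703 Mb for the Pgr-Cre control and 609 Mb for the Pdgfra-Cre control, the shortest of the 12, and the peak names of the Pgr-Cre one point to another round of calling. At equal covered length 0.375% of all genes were higher by 50 points and 0.365% lower, against gains of 0.222 to 0.435% in the cKO pairs. No member passed then either. The members' median absolute difference was 8.77 points, and the extreme was Xcl1 with 61.9% in the Pgr-Cre control and 26.5% in the Pdgfra-Cre control, a difference of 35.4 points that exceeds its gain in the Pgr-Cre GD14.5 IS pair (24.8). Hcar1 came next with 25.97% in the Pgr-Cre control and 8.97% in the Pdgfra-Cre control, and the other 7 members differed by -8.77 to 14.6 points. At the same day and site the Pgr-Cre cKO list minus the Pdgfra-Cre cKO list gave no member past 50 points either way (all genes 0.236%), with Fam170b at 86.2% with Pgr-Cre and 40.3% with Pdgfra-Cre as the extreme, and Sod3 at 36.3% with Pgr-Cre and 57.5% with Pdgfra-Cre the other way.

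Between days, Hcar1 in cKO lists was the only gain of 50 points. It stood 71.9 points higher at GD14.5 IIS than at GD8.5 IIS, where 0.194% of all genes passed 50 points either way. In the control lists of these days it was at 0. No member passed 50 points in cKO lists between GD8.5 and GD5.5 IIS (all genes 0.143%), between GD18.5 and GD14.5 IS (0.24%) or between IS and IIS at GD14.5 (0.18%). In cKO lists Cd93 differed by -29.6 points between GD14.5 and GD8.5 IIS and by -24.4 between IS and IIS at GD14.5. Tgfbi differed by -38.7 points between GD18.5 and GD14.5 IS, and Fam170b was 38.4 points higher in IS than in IIS.

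In control lists Tgfbi differed by -62.8 points between GD8.5 and GD5.5 IIS, the only member past 50 (all genes 0.273%). None passed 50 points between GD14.5 and GD8.5 IIS (0.31%), between GD18.5 and GD14.5 IS (0.199%) or between IS and IIS at GD14.5 (0.236%). Cpa1 was 40.1 points higher at GD14.5 than at GD8.5 IIS in controls, where the cKO lists differed by -4.46. Cryge was 36.4 points higher at GD18.5 than at GD14.5 IS in controls, where the cKO lists differed by -21.03. Neighbouring days share a list, so these differences are not independent of each other.

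The B6CBAF1/J lists were not used to choose the members and are compared only with each other. With 1 list per group there is no test. Cd93 and Hcar1 had no peak in any of the 4 lists. Cpa1 had 3.22% after natural mating, 25.4% after vasectomized mating and 58.3% after progesterone, against 0% at GD0.5. Bbox1 had 34.3, 28.6 and 58.0% in these groups against 24.0% at GD0.5, and Xcl1 19.95, 13.8 and 31.97% against 16.8% at GD0.5. The progesterone list was the highest of the 4 for all 3 of these genes. Tgfbi, with 96.0, 57.4 and 76.6% against 90.8% at GD0.5, was highly covered in all of them. Cryge went the other way, with 17.2, 0 and 0% against 53.2% at GD0.5, and Fam170b had 0% in the 3 groups against 9.93% at GD0.5. Sod3 had 40.1, 6.26 and 11.1% against 12.4% at GD0.5.

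By the 50-point rule, either way, no member passed after natural mating (all genes 0.546%). Cryge passed after vasectomized mating, with -53.2 points (0.546%). After progesterone Cpa1 passed with 58.3 points and Cryge with -53.2 (1.06%). The median over members was 3.17 points after natural mating, -2.98 after vasectomized mating and 0 after progesterone, and 0 for all genes in each.

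**Figure D4:**
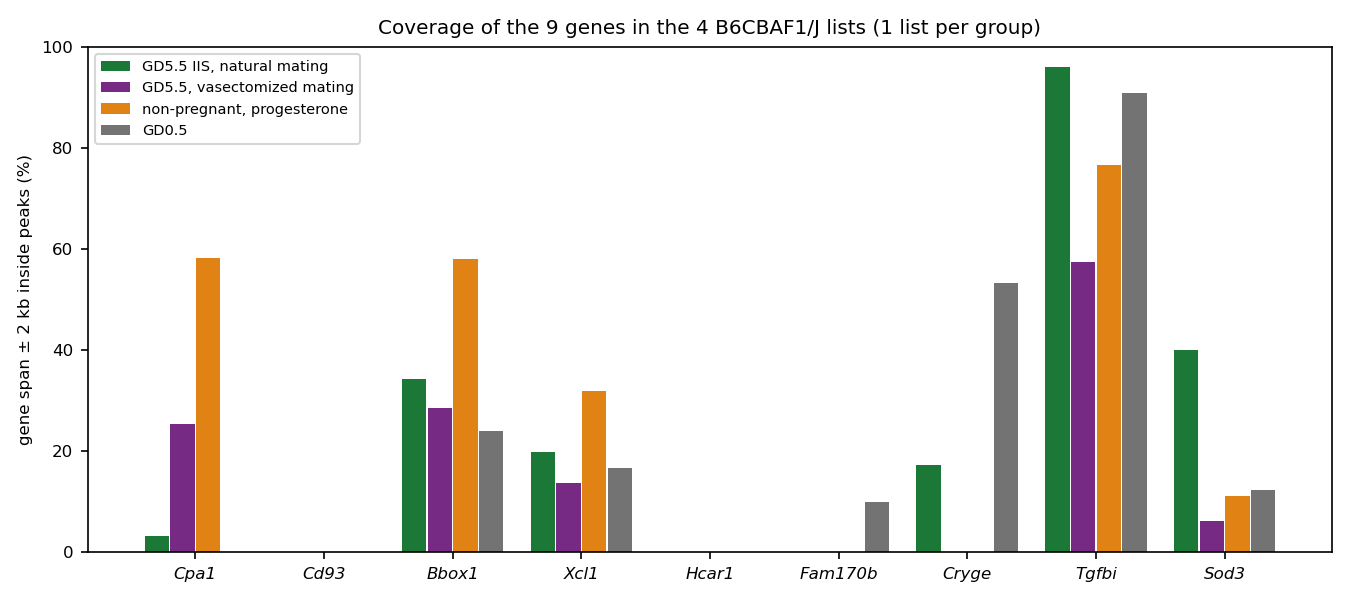
Coverage (vertical axis, percent of the gene, extended by 2 kb at each end, inside peaks) of each member in the 4 B6CBAF1/J lists, with 1 list per bar and GD0.5 as the last bar of each group. Cd93 and Hcar1 have no bar because they are at 0 in all 4 lists, Cpa1 is highest with progesterone, and Cryge is highest at GD0.5.

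The share of genes past 50 points differed by gene length. With all genes split into 4 classes of about equal size by length, 1.72% of the shortest (144 to 5840 bp) reached 50 points in at least 1 pair. In the next classes the shares were 0.499%, 0.240% and 0.129%. Members fall in all 4 classes, 4 in the shortest (Xcl1, Hcar1, Fam170b and Cryge), 3 in the second (Cpa1, Cd93 and Sod3), Tgfbi in the third and Bbox1 in the longest. Cpa1 had 1 or 2 peaks per cKO list, of up to 12.8 kb, whereas Bbox1 was covered by 10 to 17 peaks per cKO list, against 1 to 21 in control lists.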

How the data were processed

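H3K27me3 CUT&RUN libraries from 48 of the 80 samples stand behind 16 deposited broad peak lists. The remaining 32 samples (20 are inputs) are in none of these lists and were not used here. One of these inputs, of the Pgr-Cre cKO at GD14.5 IS, is an input by its title but carries an H3K27me3 antibody label, and no label names the background used for that list. Per the submitters' processing notes, STAR 2.7.5c, samtools 1.10, Picard, bedtools 2.29.1, bedGraphToBigWig 2.8 and macs2 2.2.7.1 were used with mm10. The deposited lists give each peak's fold (a ratio over background) and its −log10 p and −log10 q, as the authors' peak caller wrote them, and pool 3 samples. The 12 lists of the Kdm6b study and the 4 of B6CBAF1/J were kept apart. Peak names in the Pgr-Cre lists of GD14.5 IS point to another round of calling.

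Peaks were merged and coverage computed for genes of the autosomes and X in RefSeq's GRCm38.p6 table (python 3.11.15, numpy 2.4.6, pandas 2.3.3, matplotlib 3.10.9), and the coverage code was tested on simulated intervals. Positions count from 1. No test was run, because the members were picked on the cKO and control contrast and each group is 1 list. Read depth is unknown, so no interval is attached to a value. Members, gene lists and alternatives were chosen with earlier results of these data known. Named genes are the 9 members, Kdm6b, the nearest protein-coding gene on each side, the listed relatives, and for each member the 2 genes on another chromosome or over 1 Mb away with the smallest mean absolute difference in coverage over the 12 Kdm6b-set lists. Other genes past 50 points in at least 3 pairs are named outside this rule, after their values were seen. The values of 1 listed relative are not reported here. Marker lists covered fibroblast, smooth muscle, epithelial, endothelial, immune and trophoblast genes. Alternatives were equal covered length (487 Mb per Kdm6b-set list and 544 Mb per B6CBAF1/J list), peaks with −log10 q at or above 2 or a fold at or above 1.3, flanks of 5 kb or none, a 25-point threshold, subtraction of the median of all genes, and leaving out each pair. Leaving out a pair for the count of member-pairs, and all alternatives for the gained length, the control lists, the site, day and Cre differences and the neighbours, were added after the data were seen.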

Additional observations from a re-analysis of the deposited data

Results flagged for a closer look

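Tgfbi in the Pgr-Cre GD5.5 IIS pair was lower in the cKO list than in control, with a difference of -13.2 points, while the other 5 pairs were higher in cKO by 16.9 to 66.2 points. Cryge in the Pgr-Cre GD8.5 IIS pair was lower in cKO too, with -8.73 points, and the other 5 pairs were higher by 1.62 to 59.0 points. Both stand out because 1 day goes against the others. With 1 list per group, the difference between days was not tested.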

How the results depend on the processing

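No member has a peak at or above a −log10 q of 2. Restricting the lists to such peaks thus gives 0 for the member-pairs past 50 points, the members' median difference and the gained length. It also gives 0 for the members' differences by site, day and Cre and in the B6CBAF1/J lists. The count of neighbour pairs was 0 as well. Of all genes, 0 to 0.384% gained 50 points per pair in this setting. At a fold of at least 1.3, 7 of the 54 member-pairs passed against 25 as deposited. The share of all genes was then 0.398 to 0.814% per pair, against 0.0879 to 0.227% as deposited. The median difference was 19.5 against 44.6 points and the gained length 0 against 4.28 kb. In this setting 9 site, day and Cre differences passed against 2, 0 B6CBAF1/J differences against 3, and 1 neighbour pair against 2. At equal covered length 24 member-pairs passed (all genes 0.222 to 0.435% per pair), 20 of them among the 25. The median difference was 31.3 points. Each of the 9 members passed in at least 1 pair that also passed as deposited, and Cpa1 passed in 6 of 6. Site, day and Cre differences then numbered 4, B6CBAF1/J differences 1 and neighbour pairs 1. Flanks of 5 kb left 14 member-pairs (all genes 0.0370 to 0.120% per pair), 1 site, day or Cre difference and 1 neighbour pair. With no flank there were 5 site, day and Cre differences and 1 B6CBAF1/J difference. At 25 points, 42 member-pairs and 8 B6CBAF1/J differences passed. The share of all genes past 25 points is not given here, and nothing is read from these 2 counts. Apart from the members' 0 values at the −log10 q limit, the cause was not tested. Subtracting the median of all genes left every mean as it was, since that median is 0. Leaving out 1 pair at a time gave 19 to 23 member-pairs and a median difference of 42.5 to 47.7 points. Each member's mean difference stayed above 0 in these runs, at equal covered length and with either flank, but moved by over 1.5 times for Fam170b at equal covered length (31.3 against 48.1 points) and for Sod3 with flanks of 5 kb (13.8 against 22.1). At a fold of at least 1.3 it was 2.03 at Fam170b, 9.05 at Hcar1 and 0 at Cryge. No paired analysis was possible because each list pools its samples and no test was made. What depth limits cannot be given, since it is unknown.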

Other observations

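Smooth muscle markers had a mean coverage of 17.03% in cKO and 18.6% in control lists, and trophoblast markers 40.2% in cKO and 39.0% in control lists, with no gene of either list past 50 points in any pair.

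Another 9 genes reached 50 points in at least 3 pairs and were singled out after their values were seen. Tas2r119, a bitter taste receptor gene of 1006 bp, and Mrln, which encodes the muscle micropeptide myoregulin, did so in 4 pairs each. Tas2r119 averaged 69.2% in cKO and 0.556% in control lists (mean difference 68.7 points, the first of all genes), and Mrln 70.3% in cKO and 18.8% in control lists (51.4 points). Mt1, a metallothionein gene, averaged 65.0% in cKO and 25.9% in control lists, with pair differences of -9.99 to 77.4 points, and Rnase1, a secreted ribonuclease gene, 39.2% in cKO and 2.77% in control lists. The remaining 5 were Adh6a, D630039A03Rik, Gm3646, Pabpc2 and Prr23a1, with mean differences of 41.8 to 49.9 points.

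The genes with coverage most like each member over the 12 lists include other members. Xcl1 is the gene nearest to Cpa1 (mean absolute difference 14.9 points) and Bbox1 is second for Tgfbi (11.2 points), after Gm30733 (11.2 points). Mrln (10.2 points) and Cd101 (10.7) are nearest to Bbox1, Ypel4 (11.2) and Tas2r119 (11.7) to Cd93, Vmn1r223 (7.51) and Glrp1 (8.70) to Cryge, and Col6a5 (6.62) and Tec (6.73) to Sod3. For Hcar1 they are Klhl38 and Tcim (both 10.5), for Fam170b Gm51415 and Cdh17 (9.78 and 9.79), and for Xcl1 4930564D02Rik (8.09) and Sla (9.48), with Pabpc2 (16.3) second for Cpa1. They were picked for this likeness, which is a description.

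Peaks at or above a −log10 q of 2 lay far from the members. The nearest in any control list was 55.9 kb from Bbox1, and the nearest in any cKO list was 211 kb from Cd93.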
